A study of Caenorhabditis elegans with 6 samples.

Results

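The genes described here work in ER-associated degradation (ERAD), and their mRNA levels were compared between embryos of wild-type *Caenorhabditis elegans* (strain N2) whose parents were fed empty vector (EV) RNAi and embryos whose parents were fed *pri-1* RNAi. *pri-1* encodes a subunit of the DNA primase, which makes the RNA primers of DNA replication. The set was given as 8 gene names, *sel-1*, *sel-11*, *cup-2*, *marc-6*, *cdc-48.1*, *cdc-48.2*, *ufd-1* and *npl-4.1*, and 7 of them were gene symbols among the 19933 rows of the CPM table. *marc-6* was not present under that name and is taken up at the end. Each group had 3 RNA-seq libraries of total RNA from eggs that were harvested from plates after 96 h at 20 °C. Both groups had the wild-type genotype and ate RNAi bacteria, so that by design the groups differed in the double-stranded RNA made in the food. The study states that eggs of *pri-1* RNAi-fed parents do not hatch and arrest early in embryogenesis, so that embryo stage could differ as well.

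ERAD removes misfolded proteins from the endoplasmic reticulum. In yeast and mammals, a membrane complex around the ubiquitin ligase HRD1 and its partner HRD3 (SEL1L in mammals) recognizes the substrate, derlins help to pass it through the membrane, and ubiquitin is attached on the cytosolic side. The ATPase CDC-48 (p97 in mammals), with the adaptors UFD-1 and NPL-4, then pulls the ubiquitylated protein out for the proteasome. CDC-48 with these adaptors also acts in the nucleus, where in worm embryos it takes replication proteins off chromatin.

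The CPM of a gene are its read estimates relative to a library total of 1000000. Recovered library totals were 122751198 to 162069338 reads, with the most common low CPM value taken as 2 reads. On this scale 3 reads corresponded to 0.0185 to 0.0244 CPM, so that counting error was small for all 7 genes. The target gene *pri-1* had 41.2, 47.2 and 26.9 CPM in EV and 28.6, 28.7 and 24.3 CPM in *pri-1* RNAi replicates 1, 2 and 3. EV replicate 3 lay within the range of the *pri-1* RNAi libraries, and the log2 fold change of -0.46 (SE 0.29) did not pass the threshold (limma, adjusted p = 0.285). Developmental stage was not given in the labels. The summed level of 11 early embryo markers was 82.7 to 208 CPM in EV and 264 to 387 CPM in *pri-1* RNAi libraries, with *mex-3* and *oma-1* higher and *nos-2* lower past the threshold. *mex-3* alone had 29.3 to 43.9 CPM in EV and 153 to 233 CPM in *pri-1* RNAi. The sum of the other 10 was 164, 51.9 and 66.6 CPM in EV and 154, 111 and 125 CPM in *pri-1* RNAi replicates 1, 2 and 3. These sums overlapped between the groups through EV replicate 1, while EV replicates 2 and 3 were below every *pri-1* RNAi library. The sum of 14 markers of differentiated tissues was 3838 to 7803 CPM in EV and 3359 to 6212 CPM in *pri-1* RNAi. Among these 14, limma called *snb-1* higher and *rab-3* and *dpy-7* lower, beside 17.3% and 9.94% of all tested genes. On the recovered reads, edgeR and DESeq2 each called 4 of the 14 lower and 0 higher, beside 2760 and 3414 of 17784 genes lower. The log2 fold change was above 0 for 1 of the 14, against 49.7% of all tested genes, and its median was -0.40, against -0.0077. The 6 vitellogenin genes of the adult intestine summed to 782 CPM in EV replicate 1 and to 13.03 to 103 CPM in the other 5 libraries. No marker was at 0 in any library. The part of *mex-3*, *oma-1*, *nos-2* and the other called markers in the results below was not tested. In bulk embryos, a different mix of cells or stages and a different amount of RNA per cell cannot be told apart.

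Of the 4 genes of the CDC-48 step, limma called 3 higher in *pri-1* RNAi embryos, with *npl-4.1* just inside the threshold (adjusted p = 0.0487). It called none of the 3 genes of the membrane step. edgeR called 1 and DESeq2 called 2 of the 4 higher, and neither called any of the 3. *cdc-48.2* was 3.33-fold and *cdc-48.1* 2.84-fold higher, *npl-4.1* was 1.57-fold higher, and the other 4 genes had fold changes between 1.22 and 1.47 that did not pass the threshold. Thus 3 of 7 genes were higher and 0 of 7 were lower at an adjusted p under 0.05 (limma on log2(CPM + 0.5), adjusted over 14801 genes). Of all tested genes, 17.3% were higher and 9.94% lower (27.3% in either direction), and with quantile normalization 2473 were higher and 2552 lower in place of 2564 and 1471. Of the 7 genes, 4 had an unadjusted p under 0.05, with all 4 above 0 in fold change. Over all tested genes, 5852 of 14801 had an unadjusted p under 0.05 in either direction. On the recovered reads, edgeR called 1 of the 7 higher, against 20.2% of all genes it tested, and DESeq2 called 2 of the 7 higher, against 23.9%. Neither called any lower. The log2 fold change was above 0 for all 7 genes, against 49.7% of all tested genes, and its median was 0.56, against -0.0077 over all tested genes. In 5 of the 7 genes the groups did not overlap, with the *pri-1* RNAi libraries on top, and in 0 of 7 were they at the bottom without overlap. This was so for 25.4% and 19.8% of all tested genes. After trimmed-mean (TMM) scaling, 4 of the 7 genes had groups apart, against 24.7% of all tested genes, since *ufd-1* then overlapped. All 7 genes passed the filter on low values in both groups.

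**Figure D1:**
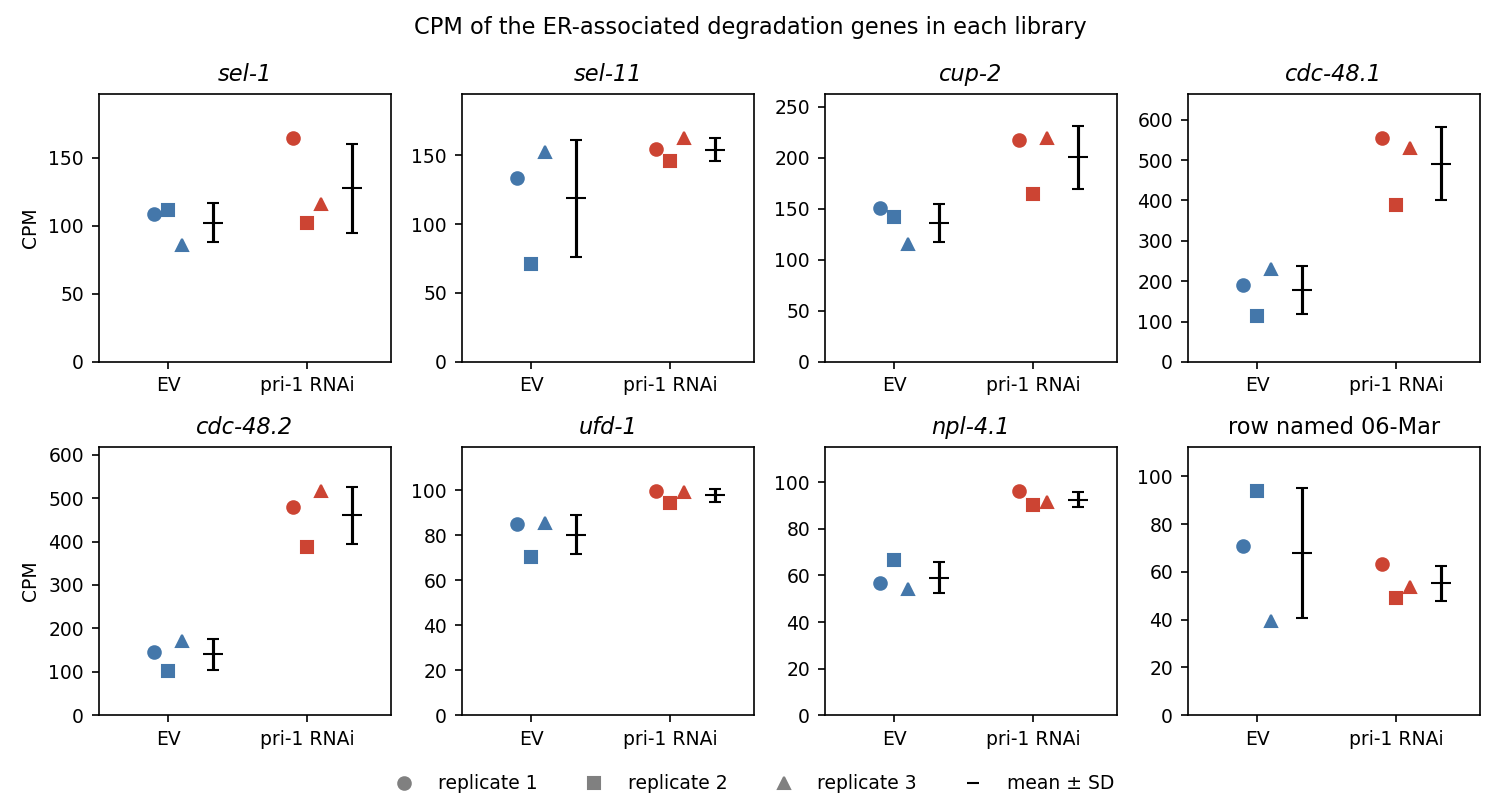
CPM (vertical axis, linear and starting at 0) of the 7 ERAD genes and of the row named 06-Mar in the 3 EV libraries (blue) and the 3 *pri-1* RNAi libraries (red). Each symbol is a library and the bars are the mean ± SD. The groups lie far apart for *cdc-48.1* and *cdc-48.2*, lie apart by a narrow margin for *cup-2* and *ufd-1*, and overlap for *sel-1* and *sel-11*.

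*sel-11* (WBGene00004768, chromosome V, 11767328 to 11769899 on the plus strand in WBcel235) encodes the worm HRD1, the ubiquitin ligase at the center of the complex. Its level was 133, 71.0 and 152 CPM in EV replicates 1, 2 and 3. In *pri-1* RNAi replicates 1, 2 and 3 it was 154, 146 and 162 CPM. EV replicate 2 was low, EV replicate 3 was above *pri-1* RNAi replicate 2, and the groups overlapped. The means were 119 ± 42.4 and 154 ± 8.37 CPM (SD, n = 3 each), with a log2 fold change of 0.45 (SE 0.30, adjusted p = 0.319). Without EV replicate 2, the log2 fold change of *sel-11* was 0.11, which was the lowest value with 1 library left out.

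*sel-1* (WBGene00004759, chromosome V, 12560732 to 12563383 on the plus strand) encodes the HRD3 homolog, which holds substrates at the ligase. It had 109, 112 and 85.6 CPM in EV and 164, 102 and 116 CPM in *pri-1* RNAi replicates 1, 2 and 3. *pri-1* RNAi replicate 1 stood above the other 5 libraries, whereas replicate 2 was within the EV range. The log2 fold change was 0.30 (SE 0.25, adjusted p = 0.418), and it was 0.10 without *pri-1* RNAi replicate 1. *sel-1* and *sel-11* were both named from screens for genes that modify the activity of the Notch receptor LIN-12.

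*cup-2* (WBGene00000843, chromosome I, 10398990 to 10400177 on the minus strand) encodes a derlin, a membrane protein of the retrotranslocation step. EV replicates 1, 2 and 3 had 151, 142 and 115.3 CPM, and *pri-1* RNAi replicates 1, 2 and 3 had 218, 165 and 219 CPM. The groups did not overlap, although *pri-1* RNAi replicate 2 was only 1.09-fold above the highest EV library. The log2 fold change of 0.56 (SE 0.22) missed the threshold after adjustment (adjusted p = 0.0981, unadjusted p = 0.035). The non-coding RNA gene *F25D7.10* overlaps *cup-2* on the other strand, and the library kit kept strand. Of the 3 membrane genes, limma called 0, with *cup-2* as the only one with an unadjusted p under 0.05, and edgeR and DESeq2 called 0. Over all tested genes, limma called 27.3% in either direction, and 5852 of 14801 had an unadjusted p under 0.05. edgeR and DESeq2 called 6359 and 7669 of 17784 genes.

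*cdc-48.2* (WBGene00008053, chromosome II, 8138496 to 8141230 on the plus strand) and *cdc-48.1* (WBGene00007352, chromosome II, 10560036 to 10563407 on the minus strand) each encode a CDC-48 ATPase. *cdc-48.2* had 146, 103 and 172 CPM in EV and 480, 388 and 516 CPM in *pri-1* RNAi replicates 1, 2 and 3. The lowest *pri-1* RNAi library was 2.26-fold above the highest EV library. Its means were 140.1 ± 35.0 and 461 ± 65.7 CPM (SD, n = 3 each), with a log2 fold change of 1.74 (SE 0.25, adjusted p = 0.00272). *ints-11* overlaps *cdc-48.2* on the other strand, and the snoRNA genes *C06A1.8* and *C06A1.9* overlap *cdc-48.1* on the same strand.

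*cdc-48.1* had 190.0, 114 and 230.1 CPM in EV and 554, 389 and 531 CPM in *pri-1* RNAi replicates 1, 2 and 3. EV replicate 2 and *pri-1* RNAi replicate 2 were the lowest of their groups, and the lowest *pri-1* RNAi library was 1.69-fold above the highest EV library. The means of 178 ± 59.1 and 491 ± 89.4 CPM (SD, n = 3 each) gave a log2 fold change of 1.51 (SE 0.30, adjusted p = 0.00956). This call was lost without *pri-1* RNAi replicate 3 (log2 fold change 1.44, adjusted p = 0.0542) and with edgeR on the recovered reads (1.13, adjusted p = 0.0888). For each of the 5 genes whose groups did not overlap, the exact two-sided permutation test gave p = 0.1, the smallest value that 3 libraries against 3 allow.

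The adaptor genes had smaller fold changes than the ATPase genes. *npl-4.1* (WBGene00019120, chromosome II, 5631351 to 5633284 on the plus strand) encodes NPL-4, which binds ubiquitin chains. It had 56.6, 66.6 and 54.02 CPM in EV and 96.1, 90.1 and 91.6 CPM in *pri-1* RNAi replicates 1, 2 and 3. The *pri-1* RNAi libraries were close together and all above the EV libraries. The log2 fold change was 0.65 (SE 0.20, adjusted p = 0.0487), just inside the threshold, and the call was kept in 5 of 20 alternative settings. It was lost without EV replicate 1 (adjusted p = 0.16), without EV replicate 3 (adjusted p = 0.0678) and without *pri-1* RNAi replicate 1 (adjusted p = 0.138), replicate 2 (adjusted p = 0.0928) or replicate 3 (adjusted p = 0.193).

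*ufd-1* (WBGene00006733, chromosome IV, 12329408 to 12330890 on the minus strand) encodes the partner of NPL-4 in the adaptor. Its level was 84.9, 70.4 and 85.6 CPM in EV and 99.5, 94.6 and 99.3 CPM in *pri-1* RNAi replicates 1, 2 and 3. The groups did not overlap, and the lowest *pri-1* RNAi library was 1.11-fold above the highest EV library, but with TMM scaling EV replicate 3 (123) was above all 3 *pri-1* RNAi libraries (86.4, 101 and 98.5). The log2 fold change of 0.29 (SE 0.20, adjusted p = 0.324) did not pass the threshold, and its 95% interval was -0.17 to 0.75.

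Both the ATPase and NPL-4 are encoded by a pair of similar genes in the worm, and reads that fit both copies could have been divided between them by the read assignment. The sum of *cdc-48.1* and *cdc-48.2* was 318 ± 94.1 CPM in EV and 952 ± 152 CPM in *pri-1* RNAi (SD, n = 3 each), with a log2 fold change of 1.61 (SE 0.28, adjusted p = 0.00532 from limma). *cdc-48.1* made up 56.6%, 52.6% and 57.2% of this sum in EV and 53.6%, 50.1% and 50.7% in *pri-1* RNAi replicates 1, 2 and 3. The share was slightly lower after *pri-1* RNAi, but the groups overlapped. The log2 ratio of the copies differed by -0.23 between the groups (exact two-sided permutation test, p = 0.2).

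*npl-4.2* (WBGene00019121, chromosome II, 5622889 to 5624959 on the plus strand), the other NPL-4 gene, lies on the same chromosome and strand as *npl-4.1*. It had 82.2, 75.5 and 83.7 CPM in EV and 155, 107 and 141 CPM in *pri-1* RNAi replicates 1, 2 and 3. The groups did not overlap in CPM, and the log2 fold change was 0.72 (SE 0.22, adjusted p = 0.0445). This call was kept in 9 of 20 alternative settings. It was lost without EV replicate 1 (adjusted p = 0.129) or 2 (adjusted p = 0.0721), without *pri-1* RNAi replicate 1 (adjusted p = 0.147) or 3 (adjusted p = 0.196), and with TMM scaling (adjusted p = 0.128), edgeR (adjusted p = 0.246) and DESeq2 (adjusted p = 0.265), and with TMM scaling EV replicate 3 (120.1) was above *pri-1* RNAi replicate 2 (114). The sum of both copies rose from 139.5 ± 2.31 to 227 ± 27.5 CPM (SD, n = 3 each; log2 fold change 0.69, SE 0.19, adjusted p = 0.0314 from limma). *npl-4.1* held 42.3% ± 4.03 of the sum in EV and 41.1% ± 4.02 in *pri-1* RNAi (SD, n = 3 each), and the log2 ratio differed by -0.070 (exact two-sided permutation test, p = 0.6).

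**Figure D2:**
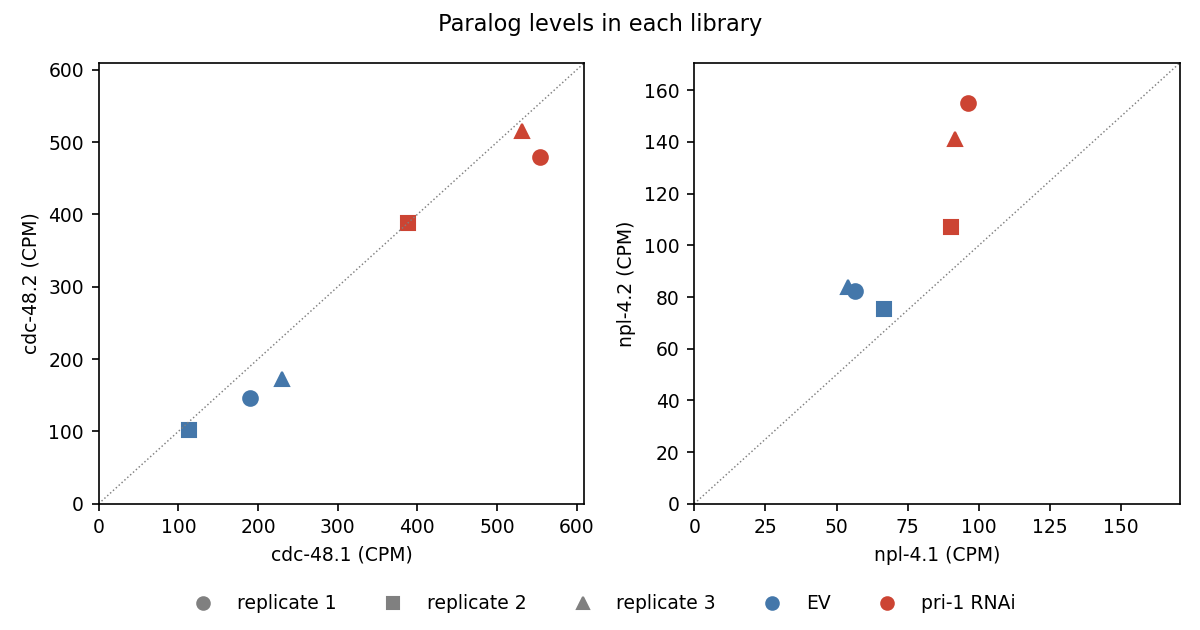
CPM of *cdc-48.2* against *cdc-48.1* (left) and of *npl-4.2* against *npl-4.1* (right), on linear axes from 0, with EV libraries in blue, *pri-1* RNAi libraries in red and a dotted line at equal CPM. Within each pair both copies were higher in all 3 *pri-1* RNAi libraries, and the share of *npl-4.1* stayed near 42.3% and 41.1% of the summed CPM.

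Levels of different genes were compared as CPM per kilobase of annotated exon. In EV embryos, *cup-2* was the highest of the 7 with 150.2 ± 20.4 CPM per kb, and its range did not overlap that of *ufd-1*, the next, at 66.1 ± 7.05 (SD, n = 3 each). From *ufd-1* the order went on through *cdc-48.1* (64.8), *sel-11* (57.0), *cdc-48.2* (55.4) and *sel-1* (42.8) to *npl-4.1* (35.1 CPM per kb), and each neighboring pair had overlapping ranges. In *pri-1* RNAi embryos the order changed. *cup-2* (222 CPM per kb), *cdc-48.2* (182) and *cdc-48.1* (179) overlapped at the top, above *ufd-1* (80.5) and *sel-11* (74.0), which overlapped each other. *npl-4.1* (55.0) and *sel-1* (53.4 CPM per kb) were the lowest and overlapped.

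The order of the libraries within a group depended on the scaling. In CPM as deposited, *pri-1* RNAi replicate 2 was the lowest library of its group for all 7 genes. In EV, replicate 2 was the lowest for *sel-11*, *cdc-48.1*, *cdc-48.2* and *ufd-1*, for which replicate 3 was the highest, and replicate 3 was the lowest for *sel-1*, *cup-2* and *npl-4.1*. The TMM scaling factors, which reflect library composition, were 1.05, 1.26 and 0.697 in EV and 1.152, 0.935 and 1.01 in *pri-1* RNAi replicates 1, 2 and 3. After this scaling, EV replicate 2 was the lowest and EV replicate 3 the highest EV library for all 7 genes, whereas *pri-1* RNAi replicate 2 was the lowest of its group for 4 genes and the highest for *ufd-1* and *npl-4.1*. Likeness of profiles was measured as the root mean square difference of centered log2(CPM + 0.5) over the 6 libraries, among 49 other genes of the ERAD, unfolded protein response and chaperone lists. The closest gene to *cdc-48.1* was *cdc-48.2*, and the reverse, at 0.157. *cup-2* was closest to *ubc-7* (0.0568), as was *npl-4.1* (0.137), *sel-11* to *ubxn-1* (0.0895), *sel-1* to *ubxn-4* (0.117) and *ufd-1* to *der-2* (0.141).

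A further 26 genes with roles in ERAD were present in the table, of which 25 were tested and *ubxn-5* was too low. Of the 25, 4 were higher, 1 was lower and 20 did not pass the threshold. The share of higher genes, 16%, was near the 17.3% of all tested genes, and the median log2 fold change was 0.073. Among 9 other CDC-48 cofactors, *ubxn-6*, the homolog of human UBXN6, and *npl-4.2* were higher. *ubxn-6* rose from 41.1, 41.3 and 30.6 CPM in EV to 109, 75.2 and 96.0 CPM in *pri-1* RNAi replicates 1, 2 and 3, with no overlap (log2 fold change 1.30, SE 0.25, adjusted p = 0.0082). This call was lost without *pri-1* RNAi replicate 3 (adjusted p = 0.0572). The protein-coding gene *H06H21.37* overlaps *ubxn-6* on the same strand.

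Among 4 genes that handle extracted proteins in the cytosol, limma called *rad-23* and *ubql-1* higher. edgeR called 0, with 1 at an unadjusted p under 0.05, as had 8399 of the 17784 genes it tested. DESeq2 called 1, which was *ddi-1*. Of all genes they tested, limma, edgeR and DESeq2 called 17.3%, 20.2% and 23.9% higher. *rad-23* and *ubql-1* encode factors that carry ubiquitylated proteins to the proteasome. *rad-23* had 175, 145 and 187 CPM in EV and 399, 282 and 380.1 CPM in *pri-1* RNAi replicates 1, 2 and 3 (log2 fold change 1.06, SE 0.22, adjusted p = 0.0114). *ubql-1*, the ubiquilin gene, had 293, 240.4 and 334 CPM in EV and 501, 525 and 596 CPM in *pri-1* RNAi (log2 fold change 0.91, SE 0.20, adjusted p = 0.0151). The groups did not overlap in CPM for either gene, but with TMM scaling EV replicate 3 was above *pri-1* RNAi replicate 1 for *ubql-1* (480.04 and 435). Both calls were lost without *pri-1* RNAi replicate 3 (adjusted p = 0.0754 and 0.0992), with TMM scaling (0.0602 and 0.135), median centering (0.0501 and 0.102), edgeR (0.123 and 0.251) and DESeq2 (0.0883 and 0.207). The call of *ubql-1* was also lost without EV replicate 1 (adjusted p = 0.061). *ddi-1*, which encodes an aspartic protease with a ubiquitin-like domain and is also counted among such carriers, had a log2 fold change of 0.81 (SE 0.34, adjusted p = 0.118) with overlapping groups in CPM. With TMM scaling its *pri-1* RNAi libraries (142, 98.0 and 123) were all above the EV libraries (67.0, 80.4 and 68.5). It passed the threshold in 7 of 20 alternative settings, among them TMM scaling (limma, adjusted p = 0.0434) and DESeq2 (adjusted p = 0.0407), but not with edgeR (adjusted p = 0.0684).

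Among 5 genes of ubiquitin-conjugating enzymes, *ubc-14* was lower, at 116, 128 and 134 CPM in EV and 58.5, 86.2 and 68.0 CPM in *pri-1* RNAi replicates 1, 2 and 3. Its groups did not overlap (log2 fold change -0.84, SE 0.22, adjusted p = 0.0278), and the call was kept in 12 of 20 alternative settings. It was lost without EV replicate 1 (adjusted p = 0.0825) and without *pri-1* RNAi replicate 1 (adjusted p = 0.0967) or replicate 3 (adjusted p = 0.132). Further losses came with TMM scaling (0.0644), median centering (0.249), centering on the median ratio (0.0648), the title number as a block (0.0597) and edgeR (0.0513). *ubc-7*, of the same enzyme family, had 120.7 ± 17.3 CPM in EV and 176 ± 23.5 CPM in *pri-1* RNAi (SD, n = 3 each; log2 fold change 0.55, adjusted p = 0.0992 from limma). None of the 3 mannosidase-like genes and none of the 4 other derlin and ligase genes (*der-2*, *hrdl-1*, *rnf-5* and *rnf-121*) was called by limma, edgeR or DESeq2, and 0 of these 7 had an unadjusted p under 0.05 in limma. Over all tested genes, limma called 27.3% in either direction, and 5852 of 14801 had an unadjusted p under 0.05. edgeR and DESeq2 called 6359 and 7669 of 17784 genes. *der-2*, the second derlin gene, had 61.3 ± 4.07 CPM in EV and 62.5 ± 1.01 CPM in *pri-1* RNAi (SD, n = 3 each), and the sign of its difference changed with the scaling.

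**Figure D3:**
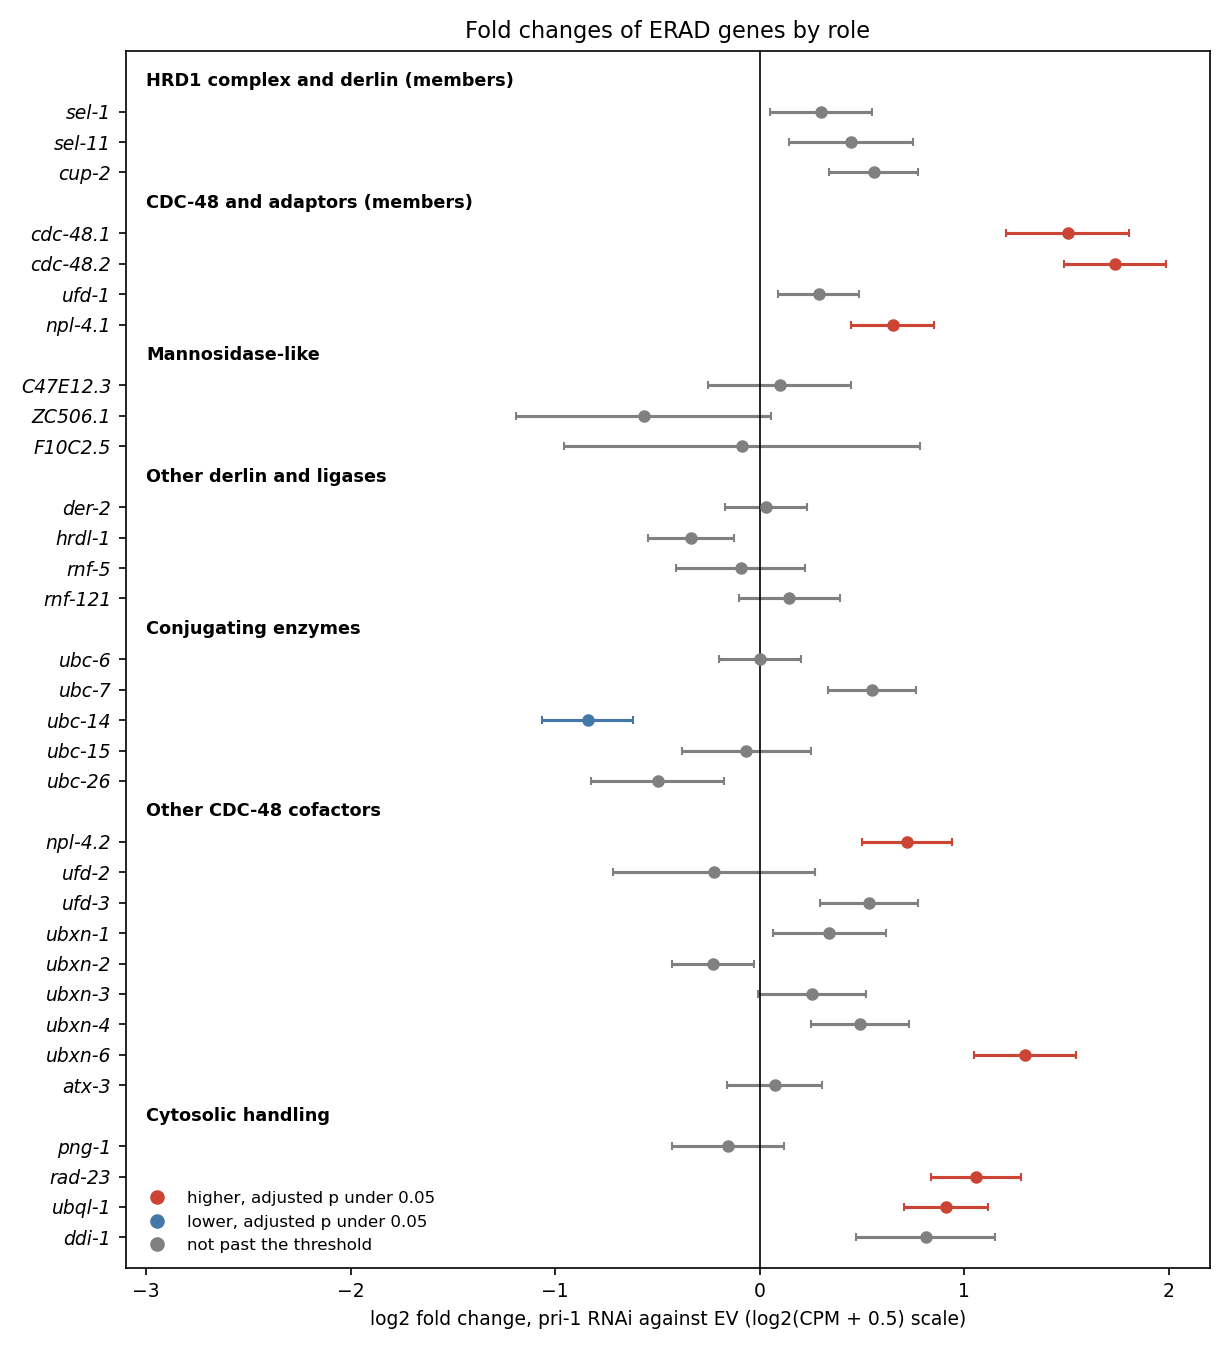
Log2 fold changes of *pri-1* RNAi against EV (horizontal axis, log2(CPM + 0.5) scale) of the 7 ERAD genes and 25 further ERAD genes, grouped by role. Points are limma estimates, bars are 1 standard error to each side, and color marks genes past an adjusted p of 0.05. The highest values are those of *cdc-48.2* (1.74) and *cdc-48.1* (1.51), and the genes of membrane factors are gray.

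The unfolded protein response of the ER is known to control many ERAD genes, so its genes were listed for comparison. Of 5 genes of its sensors and factors (*ire-1*, *xbp-1*, *atf-6*, *pek-1* and *atf-4*), limma called 0, with 1 at an unadjusted p under 0.05, and edgeR and DESeq2 called 0. Over all tested genes, limma called 27.3% in either direction, and 5852 of 14801 had an unadjusted p under 0.05. edgeR and DESeq2 called 6359 and 7669 of 17784 genes. *xbp-1*, which encodes the transcription factor activated by IRE-1 splicing, had 1163, 870.5 and 1057 CPM in EV and 1577, 1471 and 1716 CPM in *pri-1* RNAi replicates 1, 2 and 3. These groups did not overlap in CPM but did with TMM scaling, and the log2 fold change of 0.63 (SE 0.20) was just outside the threshold (adjusted p = 0.0542). *pek-1*, the PERK kinase gene, had a log2 fold change of 0.67 (SE 0.40, adjusted p = 0.257), and *atf-4* one of -0.32 (SE 0.20, adjusted p = 0.277). The groups of *pek-1* overlapped in CPM but not with TMM scaling (38.4 to 61.0 in EV and 63.8 to 82.5 in *pri-1* RNAi). *pek-1* passed the threshold in 3 of 20 alternative settings. Of 13 ER chaperone genes, limma called 3 higher (23.1%, against 17.3% of all tested genes) and 0 lower, with 4 at an unadjusted p under 0.05. edgeR and DESeq2 each called 1 of the 13 higher and 0 lower, against 20.2% and 23.9% of all genes they tested called higher. *hsp-4*, a BiP gene, rose from 428, 261 and 368 CPM to 1260, 1215 and 1448 CPM (log2 fold change 1.92, SE 0.24, adjusted p = 0.00156). *enpl-1*, the GRP94 gene (0.71, SE 0.19, adjusted p = 0.031), and *pdi-1*, a protein disulfide isomerase gene (0.95, SE 0.29, adjusted p = 0.0439), were the others, and each was called in at most 8 of 20 alternative settings. With 1 library left out, each kept its call in 1 of 6 fits.

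Across 20 alternative settings, the log2 fold change of each of the 7 ERAD genes stayed above 0. *cdc-48.2* passed the threshold in all 20, with log2 fold changes of 1.41 to 1.95, and *cdc-48.1* in 18, with 1.13 to 1.72. *sel-1*, *sel-11*, *cup-2* and *ufd-1* passed in none of the 20.

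**Figure D4:**
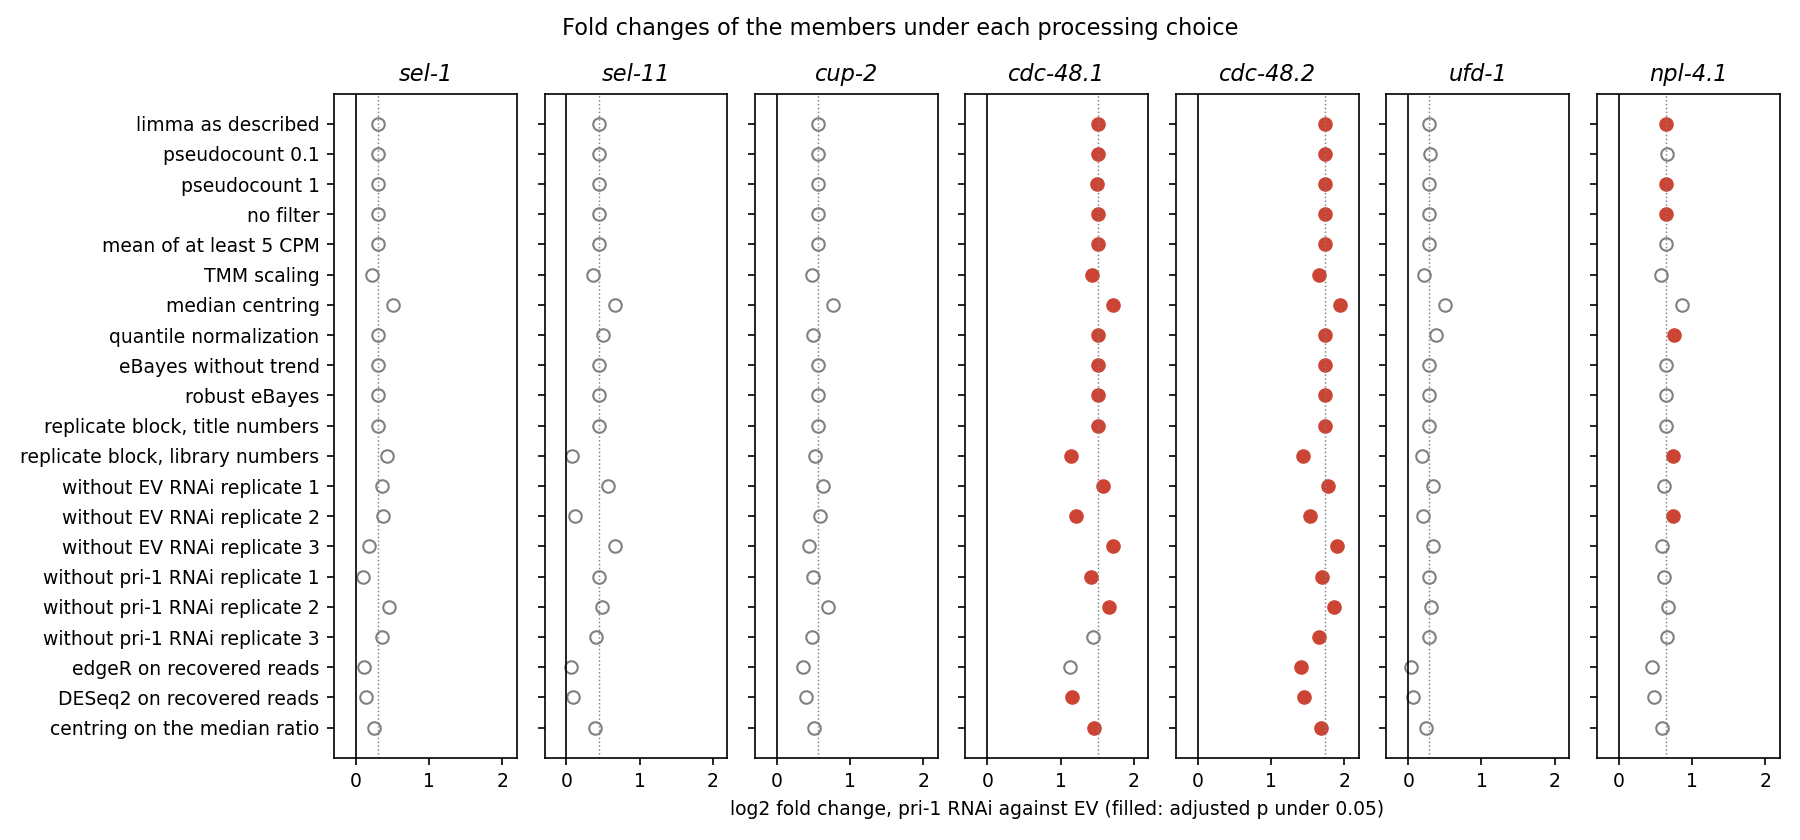
Log2 fold change of *pri-1* RNAi against EV (horizontal axes) of each of the 7 ERAD genes under the main limma fit (top row, dotted line) and 20 alternatives. Filled points passed an adjusted p of 0.05. *cdc-48.2* is filled throughout, *cdc-48.1* in 18 and *npl-4.1* in 5 of the 20 alternatives, and the other 4 genes are open throughout.

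*marc-6* encodes a homolog of the yeast ERAD ligase Doa10, and the protein-coding gene *C35E7.9* overlaps it on the same strand. The table held no *marc* symbol, but 11 row names had been turned into dates, and *marc-6* was the only annotated symbol that could have given the row 06-Mar. This row had 70.9, 93.7 and 39.3 CPM in EV and 63.2, 48.9 and 53.5 CPM in *pri-1* RNAi replicates 1, 2 and 3. In CPM the EV libraries spanned the *pri-1* RNAi libraries, and the log2 fold change was -0.22 (SE 0.34, limma, adjusted p = 0.678). With TMM scaling the *pri-1* RNAi libraries (54.9, 52.3 and 53.1) were all below the EV libraries (67.8, 74.1 and 56.5; limma, adjusted p = 0.318). The log2 fold change was below 0 in 18 of 20 alternative settings and 0.055 without EV replicate 2. It passed the threshold in 0 of the 20, so that no direction was called. Since the name rests on this inference, the row was not counted with the 7 genes.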

How the data were processed

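RNA-seq of embryos was analyzed in 6 libraries, 3 per group, grouped by the treatment in the labels. The authors trimmed reads with Trimmomatic 0.36, assigned them with Salmon 1.4.0 to WBcel235 transcripts, summed genes with tximport and deposited CPM, which add up to 1000000 per library. The study counts the 3 libraries of a group as separate experiments, and the labels do not say whether they were separate cultures, so that p-values measure only the spread between these libraries. Symbols were matched to Ensembl release 115 (WBcel235) for coordinates and exon lengths.

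limma 3.58.1 (R 4.3.3; lmFit, eBayes with trend) was run on log2(CPM + 0.5) for the 14801 genes that reached 0.5 CPM in 3 or more libraries. P-values were adjusted by Benjamini-Hochberg across all of them, with 0.05 as the threshold. Fold changes on this scale understate those of low genes. The exact permutation tests were two-sided. Reads were recovered from the CPM steps for edgeR 4.0.16 and DESeq2 1.42.0 as alternatives (over 10 reads in 3 or more libraries): 92.7% to 93.9% of values above 0 per library came within 0.1 of a whole read, and 6359 and 7669 genes were called. Floors of 3 reads cover counting error only. limma and edgeR were tested on simulated counts with known changed genes.

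The members and lists were chosen with earlier results of these data known. Named genes were the members, *npl-4.2*, the 6 other ERAD genes and 3 genes each of the response and chaperone lists with the smallest p, and the gene closest in profile to each member. Marker genes were named after their values were seen. Other alternatives were pseudocounts of 0.1 and 1, no filter, a mean of at least 5 CPM, TMM scaling, median centering, quantile normalization, eBayes without trend or robust, replicate blocks and each library left out. Centering on the median ratio was added after seeing the result of the planned median centering, in which each library was centered on its own median, and the alternatives for the further ERAD genes and the separation of the groups on TMM-scaled levels were also added after seeing the data. A planned count of promoter motifs was not run, since promoter sequence was not used here. Python 3.11.15 with pandas 2.3.3, numpy 2.4.6 and matplotlib 3.10.9 served for tables and figures.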

Additional observations from a re-analysis of the deposited data

How the results depend on the processing

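The number of the 7 ERAD genes past the threshold was 3, and it was 2 or 3 in all alternatives except edgeR (1) and leaving out *pri-1* RNAi replicate 3 (1); with 1 library left out it was 1 to 3. For all tested genes, the main count of 4035 became 2147 with a mean of at least 5 CPM, 6359 with edgeR, 7669 with DESeq2, and 1710 to 5502 with 1 library left out. Among the further ERAD genes, 5 calls became 2 with TMM scaling, 2 with median centering, 3 with centering on the median ratio, 1 with edgeR, 3 with DESeq2, and 0 to 5 with 1 library left out. Median centering moved the median log2 fold change of all genes from -0.0077 to 0.20, and the share of higher genes among the calls was 63.5% in the main fit, 71.7% with this centering and 56.4% with centering on the median ratio, which was chosen after seeing the data. For libraries with the same title number, the correlations of their deviations from the group means were 0.040, -0.32 and 0.46. Those of the other EV and *pri-1* RNAi pairs ranged from -0.58 to 0.52. Deviations within a group add up to 0, so these values cannot decide whether libraries were paired. With the title number as a replicate block, 3 further ERAD genes passed. A separate library number matched only EV replicate 1 with *pri-1* RNAi replicate 1, and EV replicate 3 with *pri-1* RNAi replicate 2 (correlations 0.040 and 0.37). The other libraries had no partner, so a block on it compared the groups within these pairs alone. This fit gave 6076 calls over all genes, and log2 fold changes of 0.073 for 06-Mar and -0.019 for *der-2*. It leaves only 1 residual degree of freedom per gene, so its p-values rest on that and on the variance pooled over genes. The counts of alternative settings passed by *cdc-48.2*, *cdc-48.1*, *npl-4.1*, *ddi-1*, *pek-1* and others include this fit. The sign of *der-2* also changed with TMM scaling (-0.048), centering on the median ratio (-0.022), edgeR (-0.20) and DESeq2 (-0.17), and its range with 1 library left out was -0.016 to 0.079. The *ubxn-1* value was -0.0076 with edgeR. With 1 library left out, 06-Mar ranged from -0.57 to 0.055 and the log2 ratio of *npl-4.1* to *npl-4.2* from -0.21 to 0.063. The causes were not tested.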
